A study of Mus musculus with 12 samples.

Results

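Glycolysis, lactate export and the gatekeepers of pyruvate were followed in mouse prostate tumours that had grown in hosts with or without p62. The set was fixed by gene name and holds 36 genes. A gene was taken as measured where a probe set carried its symbol and no other, which applied to 32 of the 36, out of 19937 genes with such a probe set on the array. Gapdh had 0 such probe sets and 11 shared with other symbols, and Gapdh, Gpi1, Pfkfb1 and Eno1 were not analysed here. The study set tumours of p62 KO hosts against tumours of wild-type (WT) hosts, 6 mice each, all on the C57BL6 background. Every host received 50000 TRAMP-C2Re3 cells, a murine prostate carcinoma line, in the prostate, and tumours were harvested after 60 days. The p62 KO is that of the host, whose gene is Sqstm1, while the injected cells were of 1 line in both groups, for which the labels give no change of Sqstm1. They name neither the deleted exons nor the age or sex of the mice, and the p62/IL-6 DKO hosts that the protocol also mentions were not analysed here. Each tumour came from its own mouse and gave 1 array.

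Glycolysis splits glucose into pyruvate in a chain of cytosolic steps that begins with a glucose transporter and a hexokinase and is paced by phosphofructokinase. Pyruvate is then either reduced to lactate by lactate dehydrogenase and carried out of the cell by monocarboxylate transporters, or oxidised in mitochondria by the pyruvate dehydrogenase complex, which its kinases (PDKs) switch off and its phosphatases switch on. Most steps have several isoforms encoded by separate genes and used by different cells, and many of these genes are known targets of the hypoxia-inducible factor HIF and of Myc.

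Upstream sequence is shown for the 4 members with the smallest unadjusted p in the comparison, all of them higher in tumours of p62 KO hosts, because the core letters bound by HIF can be looked for there. Ldhb is among the 4 through a probe set whose neighbours lie on another chromosome, so its signal may not come from the start shown. Each line gives the 250 bases before a RefSeq start (build GRCm38.p6), with every ACGTG or GCGTG on either strand in capitals and overlapping matches joined. The sequences are those of Slc2a1 (chr4:119108495-119108744, plus strand), of Slc16a3 (chr11:120948817-120949066, plus strand), of both starts of Aldoc (chr11:78322823-78323072 and chr11:78323948-78324197, plus strand) and of Ldhb (chr6:142507958-142508207, minus strand).
Slc2a1: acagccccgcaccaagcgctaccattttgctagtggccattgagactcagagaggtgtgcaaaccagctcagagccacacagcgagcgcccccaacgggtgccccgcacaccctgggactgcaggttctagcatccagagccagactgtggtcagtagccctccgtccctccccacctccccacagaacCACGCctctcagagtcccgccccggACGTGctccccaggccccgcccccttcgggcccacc
Slc16a3: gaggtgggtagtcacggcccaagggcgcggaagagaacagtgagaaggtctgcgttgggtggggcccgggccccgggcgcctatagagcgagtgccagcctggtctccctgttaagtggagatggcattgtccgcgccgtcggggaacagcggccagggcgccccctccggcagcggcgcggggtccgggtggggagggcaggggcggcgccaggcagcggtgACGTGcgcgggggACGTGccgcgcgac
Aldoc, start 1: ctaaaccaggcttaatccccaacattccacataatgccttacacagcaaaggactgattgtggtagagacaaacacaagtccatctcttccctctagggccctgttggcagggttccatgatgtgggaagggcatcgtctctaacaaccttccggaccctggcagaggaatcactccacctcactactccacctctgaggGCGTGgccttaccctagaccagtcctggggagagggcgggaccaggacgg
Aldoc, start 2: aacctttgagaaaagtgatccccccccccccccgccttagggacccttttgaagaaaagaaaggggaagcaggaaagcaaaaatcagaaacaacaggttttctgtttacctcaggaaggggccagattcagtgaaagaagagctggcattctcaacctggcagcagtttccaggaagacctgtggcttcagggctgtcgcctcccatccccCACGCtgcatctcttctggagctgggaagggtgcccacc
Ldhb: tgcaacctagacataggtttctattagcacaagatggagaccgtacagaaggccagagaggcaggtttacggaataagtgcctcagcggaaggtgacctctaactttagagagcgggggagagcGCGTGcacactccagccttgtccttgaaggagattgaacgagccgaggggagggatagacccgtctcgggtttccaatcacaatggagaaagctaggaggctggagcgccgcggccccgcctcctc
Slc2a1 and Slc16a3 each held 2 matches, and the pair in Slc16a3 lay close together near the start. Each start of Aldoc and that of Ldhb held 1. Of 32851 RefSeq starts of this length, 38.6% held at least 1 match, against 77.3% of the 44 starts of members. The starts of members were richer in G and C, 59.1% against 53.2%, and the part of base composition in this gap was not tested. All 8 members with an unadjusted p under 0.05 had a match at 1 start or more, as did 18 of the 22 other members with a sequence. These are matches of letters and do not show binding.

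Levels are log2 intensities as the authors deposited them, so that a difference of 1 is a doubling, and differences are given as p62 KO hosts minus WT hosts. Sqstm1 lay between 8.17 and 9.22 (median 8.76) in tumours of KO hosts and between 8.55 and 9.16 (median 8.91) in tumours of WT hosts, a difference of -0.16 (95% interval -0.52 to 0.21), which does not check the genotype, since a tumour holds the injected cells as well as host cells. Correlations between arrays were 0.935 to 0.991. KO hosts 2 and 3 and WT hosts 2 and 5 had the narrowest interquartile ranges, 2.15 to 2.59 against 2.70 to 2.95 in the other 8 arrays, and stood together at 1 end of the first principal component. Results are therefore also given without these 4 tumours and without KO hosts 2 and 3 alone. Among genes listed for tumour epithelium, Krt8 averaged 8.12 in KO and 8.10 in WT hosts and Vim 12.32 and 12.28. Epcam, at 4.61 and 4.59, lay below the arrays' lower quartiles of 4.85 to 5.36. Vim is not particular to the injected cells, and these levels do not measure the share of injected cells in a tumour.

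For 4 members the probe set used may not sit at the gene's own locus. The probe sets of Hk1, Pgam1, Pkm and Ldhb had neighbours in identifier order that lie on another chromosome than the gene, whereas those of the other 28 members lay beside genes of their own chromosome. Glycolytic genes have many processed copies in the mouse genome, and signal from such copies was not tested. Hk1, Pkm and Ldhb each have another probe set beside genes of their own chromosome, and its difference is given with theirs. Pgam1 has none here. On the other probe set, Hk1 averaged 8.14 in KO and 7.99 in WT hosts, against 11.12 in both on the one used. Ldhb averaged 5.80 and 5.39 there, against 6.91 and 6.42, and Pkm 9.83 and 9.68, against 9.95 and 9.79.

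Most members stood higher in tumours of p62 KO hosts, and their differences were uneven along the pathway. Of the 32 measured members, 22 had a difference above 0 and 10 below, a share to be read against 57.2% of all 28192 probe sets tested, and the median difference was 0.15 against 0.02 over all probe sets. With each array set to a common median, 18 members were above 0 and 14 below, while 46.4% of all probe sets were above 0. The members with the widest gaps between groups were Slc2a1, Pfkp, Ldhb, Pfkl, Aldoc, Aldoa and Slc16a3, which take up glucose, commit and cleave the sugar, interconvert pyruvate and lactate, and export lactate. Of the pyruvate dehydrogenase complex and its phosphatases, the 4 members Pdha1, Pdhb, Dlat and Pdp1 had differences below 0.

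No member passed limma's test at an adjusted p under 0.05 (Benjamini-Hochberg over all probe sets tested), and the smallest adjusted p among members was 0.994. Over the whole array, 1 probe set passed, which is 0.00355%. At an unadjusted p under 0.05 there were 8 members higher and 0 lower, against 1.28% of all probe sets higher and 1.11% lower. In 0 of the 32 did the groups not overlap, where 0.0709% of all probe sets had every KO tumour above every WT tumour. The p-values of limma set the difference between groups against the spread between these tumours within a group. Leaving out KO host 6 brought the 8 to 5 and the median difference to 0.05, and the median was 0.10 without KO host 5. Over all probe sets, the median was 0.03 in each of these settings. Without KO host 6, 2.82% of all probe sets had an unadjusted p under 0.05 in either direction. RNA came from whole tumours, in which fewer cells of a type and less RNA per cell cannot be told apart.

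**Figure D1:**
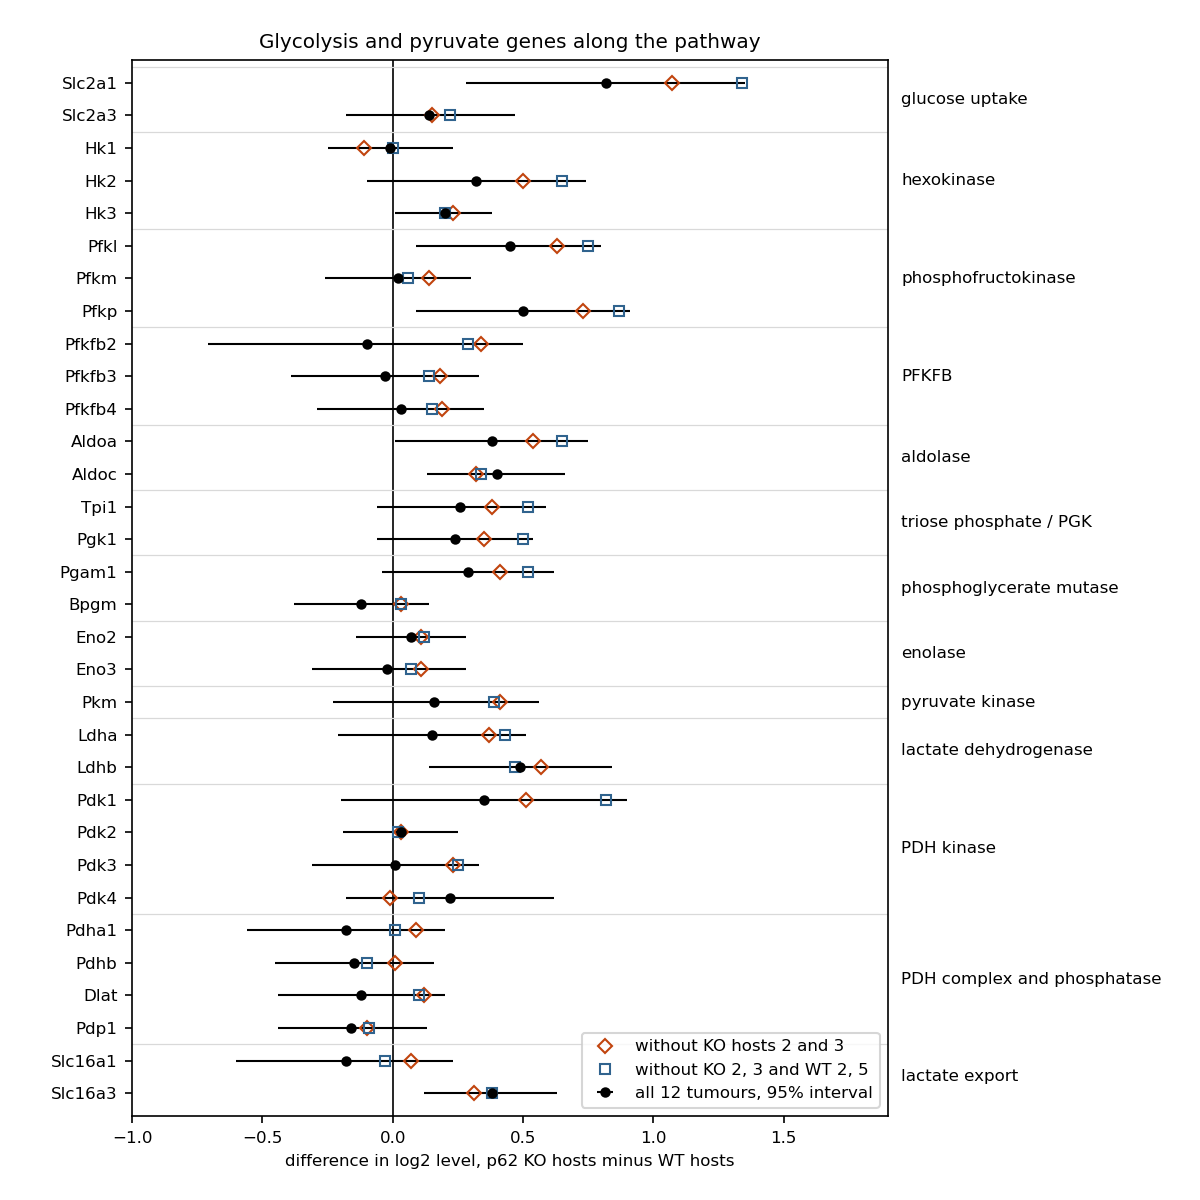
Difference in log2 level between tumours of p62 KO and WT hosts for the 32 measured genes in pathway order, with limma's 95% interval over all 12 tumours (black), and the same difference without KO hosts 2 and 3 (diamonds) and without KO hosts 2 and 3 and WT hosts 2 and 5 (squares). Slc2a1 lies farthest to the right at 0.82, and Pdha1, Pdhb, Dlat and Pdp1 lie left of 0 over all 12 tumours. The diamonds of Pdha1, Pdhb and Dlat and the squares of Pdha1 and Dlat lie right of 0. The square of Pdhb and both symbols of Pdp1 stay left of 0.

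Of the 2 measured transporters that let glucose in, one had the widest gap of all members. Slc2a1 encodes the widespread glucose transporter GLUT1. Its levels were 8.68 to 10.10 (median 9.19) in tumours of KO hosts and 8.07 to 9.14 (median 8.24) in tumours of WT hosts. All 6 KO tumours lay above the WT median and 4 WT tumours below every KO tumour, but WT hosts 2 and 5, at 9.14 and 8.85, reached into the KO range. The difference was 0.82 (SE 0.25, unadjusted p = 0.0055, adjusted p = 0.994), or 1.76-fold, and lay between 0.65 and 0.96 with any 1 tumour left out. Slc2a3 encodes GLUT3, a high-affinity transporter of neurons and activated leukocytes. Its levels overlapped widely, at 6.50 to 7.46 in KO and 6.59 to 7.05 in WT hosts, with a difference of 0.14 (SE 0.15), which was 0.04 without KO host 5 and 0.23 without KO host 1.

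Hexokinase traps glucose by phosphorylation, and its isoforms had differences from -0.01 to 0.32. Hk2, the inducible isoform of many tumours, lay at 7.69 to 8.85 in KO hosts and 7.66 to 8.36 in WT hosts, a difference of 0.32 (SE 0.20). KO hosts 4, 5 and 6, at 8.55, 8.74 and 8.85, stood above every WT tumour, and KO host 2 was among the lowest of all. Hk3, the isoform of myeloid cells, was 6.45 to 6.83 (median 6.63) in KO hosts and 6.33 to 6.54 (median 6.44) in WT hosts, with 4 KO tumours above all WT tumours. It differed by 0.20 (SE 0.09, unadjusted p = 0.0396, adjusted p = 0.994). Hk1, the housekeeping isoform, had medians of 11.06 and 11.07 and a difference of -0.01 (SE 0.11), or 0.15 (SE 0.13) on its other probe set.

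Phosphofructokinase, the committed step, has a liver, a platelet and a muscle isoform. Pfkl, the liver type, was 7.01 to 7.99 (median 7.40) in KO hosts and 6.79 to 7.42 (median 6.88) in WT hosts. WT host 2, at 7.42, stood well above the other 5 WT tumours, all at or below 6.97, and these 5 lay below every KO tumour. The difference was 0.45 (SE 0.16, unadjusted p = 0.0169, adjusted p = 0.994), and it was 0.54 without WT host 2 and 0.33 without KO host 6. Pfkp, the platelet type, was 8.38 to 9.41 (median 8.94) against 8.08 to 8.86 (median 8.38), a difference of 0.50 (SE 0.19, unadjusted p = 0.0209, adjusted p = 0.994), and KO hosts 4, 5 and 6 exceeded all WT tumours. Pfkm, the muscle type, was 7.30 to 7.97 against 7.31 to 7.87 and differed by 0.02 (SE 0.13), so that its ranges all but coincided.

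The PFKFB enzymes make and remove the fructose bisphosphate that activates phosphofructokinase, and the 3 measured had differences of -0.10 to 0.03. Pfkfb2 was 6.45 to 8.20 (median 7.96) in KO hosts and 7.40 to 8.19 (median 7.66) in WT hosts, a difference of -0.10 (SE 0.28). Its KO median lay above the WT median while its mean lay below, because KO hosts 2 and 3, at 7.04 and 6.45, were the lowest of the 12 tumours. Pfkfb3, the strong kinase induced in proliferating and hypoxic cells, differed by -0.03 (SE 0.17) and had its highest level, 8.29, in WT host 3. Pfkfb4 differed by 0.03 (SE 0.15).

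**Figure D2:**
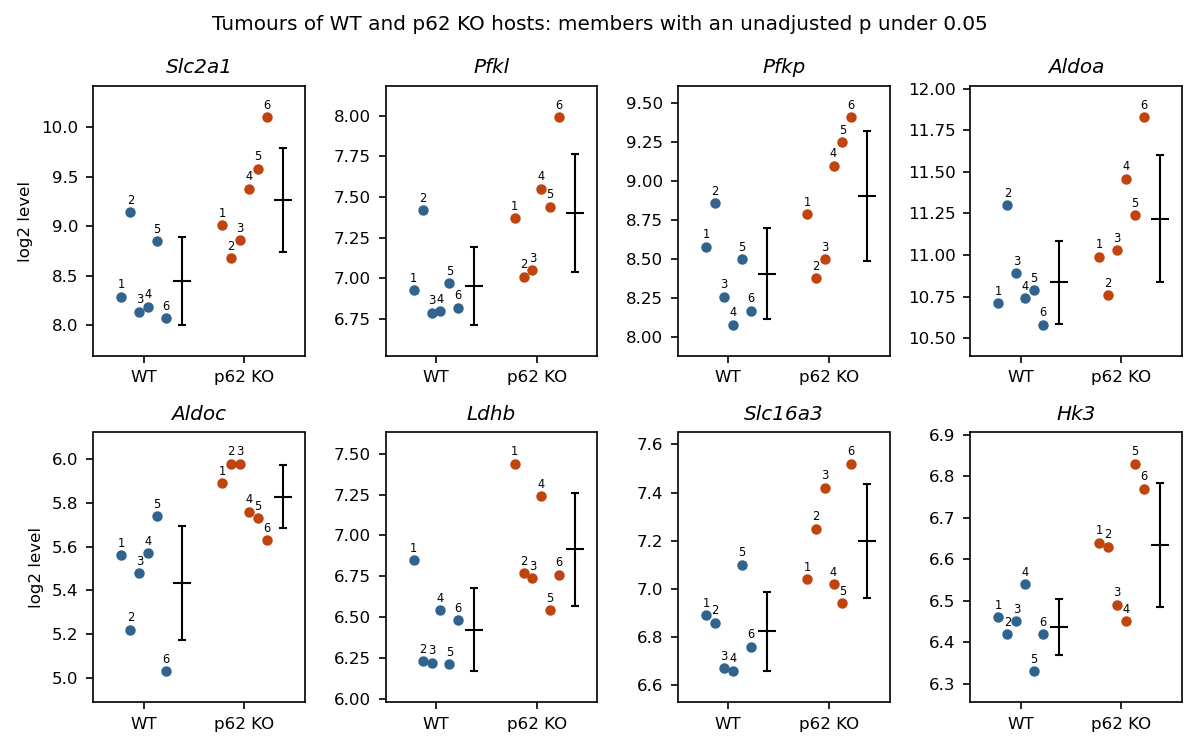
Log2 level in each tumour (points, numbered by mouse) with the group mean and SD (n = 6 per group) for the 8 genes with an unadjusted p under 0.05, in WT hosts (blue) and p62 KO hosts (orange). The groups overlap in all 8, and the highest WT tumour is WT host 2 in Slc2a1, Pfkl, Pfkp and Aldoa and WT host 5 in Aldoc and Slc16a3.

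Aldolase cleaves the phosphorylated sugar into trioses. Aldoa, the main isoform, was 10.76 to 11.83 (median 11.13) in KO hosts and 10.58 to 11.30 (median 10.77) in WT hosts, a difference of 0.38 (SE 0.17, unadjusted p = 0.0433, adjusted p = 0.994). KO hosts 4 and 6 lay above all WT tumours. Aldoc, the isoform of brain, was 5.63 to 5.98 (median 5.83) in KO hosts and 5.03 to 5.74 (median 5.52) in WT hosts, with 5 WT tumours below every KO tumour and only WT host 5 within their range. It differed by 0.40 (SE 0.12, unadjusted p = 0.00626, adjusted p = 0.994). Aldoc lies near the low end of the scale, where KO hosts 2 and 3, the arrays with the narrowest spread, gave its highest levels, both 5.98.

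In the lower part of glycolysis the differences were -0.12 to 0.29. Tpi1, which interconverts the trioses, was 10.07 to 10.91 (median 10.37) against 9.96 to 10.70 (median 10.09), a difference of 0.26 (SE 0.15), or 0.17 without KO host 6, with the top WT level again in WT host 2. Pgk1, the first step that yields ATP, differed by 0.24 (SE 0.14) and all 6 KO tumours exceeded the WT median of 10.99. Pgam1, phosphoglycerate mutase, was 9.14 to 10.13 (median 9.40) against 9.03 to 9.62 (median 9.18) and differed by 0.29 (SE 0.15), of which 0.17 was left without KO host 6. Bpgm, the mutase that makes the haemoglobin ligand of red cells, was 6.83 to 7.48 (median 7.28) against 7.14 to 7.52 (median 7.34) and differed by -0.12 (SE 0.12), or by -0.04 without KO host 3.

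Enolase was represented by its neuronal and muscle isoforms. Eno2, the neuronal type, was 6.29 to 6.82 (median 6.49) in KO hosts and 6.25 to 6.54 (median 6.47) in WT hosts, a difference of 0.07 (SE 0.10) that was 0.00 without KO host 6. Eno3, the muscle type, differed by -0.02 (SE 0.14) and ranged from 9.15 to 9.91 against 9.39 to 9.91. Pkm, pyruvate kinase of most tissues, was 9.44 to 10.58 (median 10.02) against 9.49 to 10.01 (median 9.83). KO hosts 4, 5 and 6 stood above and KO hosts 2 and 3 below all WT tumours, so that the group means differed by only 0.16 (SE 0.18), or 0.15 (SE 0.14) on the other probe set. Without KO host 6 the difference of Pkm was 0.04, and without KO host 3 it was 0.27. The probe sets give 1 value for all transcripts of Pkm and do not separate its splice forms.

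Both lactate dehydrogenase genes had a difference above 0, but their tumours ranked differently. Ldha, the isoform that favours lactate formation, was 11.05 to 12.19 (median 11.76) in KO hosts and 11.36 to 11.85 (median 11.51) in WT hosts. The difference was 0.15 (SE 0.17), with KO hosts 4, 5 and 6 above all WT tumours and KO host 2 the lowest of the 12. It was 0.05 without KO host 6 and 0.28 without KO host 2. Ldhb, the isoform of oxidative tissues, was 6.54 to 7.44 (median 6.76) against 6.21 to 6.85 (median 6.36), and 5 WT tumours lay below every KO tumour, though WT host 4 and KO host 5 are both 6.54 when rounded. It differed by 0.49 (SE 0.16, unadjusted p = 0.0099, adjusted p = 0.994), with KO hosts 1 and 4 highest at 7.44 and 7.24, and by 0.41 (SE 0.15) on the probe set beside genes of its own chromosome.

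The lactate transporters had differences of opposite sign. Slc16a3 encodes the exporter of glycolytic cells. It was 6.94 to 7.52 (median 7.14) in KO hosts and 6.66 to 7.10 (median 6.81) in WT hosts, with 5 WT tumours below every KO tumour and WT host 5 within their range. The difference was 0.38 (SE 0.12, unadjusted p = 0.00717, adjusted p = 0.994). Slc16a1, which encodes a carrier that moves lactate and pyruvate either way, was 6.51 to 7.72 (median 7.31) against 6.95 to 7.58 (median 7.50). It differed by -0.18 (SE 0.19), by -0.04 without KO host 2 and by 0.07 without KO hosts 2 and 3.

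The kinases that shut pyruvate out of the mitochondrial complex differed by 0.01 to 0.35. Pdk1, the hypoxia-induced kinase, was 7.18 to 8.11 (median 7.58) in KO hosts and 6.27 to 8.12 (median 7.23) in WT hosts, a difference of 0.35 (SE 0.25). Its WT tumours spread more widely than its KO tumours, from WT host 3 at 6.27 to WT host 2 at 8.12, and the difference was 0.16 without the former and 0.53 without the latter. Pdk2 differed by 0.03 (SE 0.10) and Pdk3 by 0.01 (SE 0.15). For Pdk3, KO hosts 1, 4, 5 and 6 stood above every WT tumour and KO hosts 2 and 3 below all of them. Pdk4, the kinase of fasting and fat oxidation, differed by 0.22 (SE 0.18), with levels of 4.45 to 5.74 around the arrays' lower quartiles, by 0.09 without KO host 3 and by -0.01 without KO hosts 2 and 3.

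The 4 members of the pyruvate dehydrogenase complex and its phosphatase had differences of -0.18 to -0.12. Pdha1, the catalytic subunit that the kinases phosphorylate, was 8.52 to 9.49 (median 9.20) in KO hosts and 8.88 to 9.52 (median 9.26) in WT hosts, a difference of -0.18 (SE 0.18). KO hosts 2 and 3 were both at 8.52, below all WT tumours, and the other 4 lay between 9.15 and 9.49. Pdhb, its partner subunit, differed by -0.15 (SE 0.14), with ranges of 5.91 to 6.70 (median 6.39) and 6.25 to 6.74 (median 6.48). Dlat, the acetyltransferase core, was 7.23 to 8.02 (median 7.92) against 7.71 to 7.98 (median 7.86) and differed by -0.12 (SE 0.15), with KO hosts 2 and 3 again below all WT tumours. Pdp1, the phosphatase that reactivates the complex, was 8.40 to 9.23 (median 8.93) against 8.92 to 9.20 (median 9.03) and differed by -0.16 (SE 0.13). Without KO hosts 2 and 3 the differences of Pdha1, Pdhb and Dlat turned to 0.09, 0.01 and 0.12, and that of Pdp1 was -0.10. With 1 tumour left out, the difference nearest 0 was -0.07 for Pdha1 and -0.02 for Dlat, both without KO host 2, and -0.06 for both Pdhb and Pdp1 without KO host 3.

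Isoforms of a step were then compared by the log2 difference between them within each tumour, where the effect of unequal probe sets cancels between groups. There were 20 pairs over 9 steps, each tested by exact permutation, two-sided, over every split of the 12 tumours into groups of 6, where the smallest possible p is 0.00216. No pair passed after Benjamini-Hochberg adjustment over the 20 pairs, and 2 had an unadjusted p under 0.05. Slc2a1 minus Slc2a3 was 2.33 ± 0.47 (SD, n = 6) in KO hosts and 1.65 ± 0.41 (SD, n = 6) in WT hosts, a shift of 0.68 towards Slc2a1 (exact permutation p = 0.0303, adjusted p = 0.368). Pfkl minus Pfkm was -0.22 ± 0.20 against -0.64 ± 0.37, a shift of 0.43 towards the liver type (exact permutation p = 0.0368, adjusted p = 0.368). Pfkm minus Pfkp shifted by -0.48 (exact permutation p = 0.0628, adjusted p = 0.418), while Pfkl minus Pfkp shifted by -0.05 (exact permutation p = 0.602, adjusted p = 0.805).

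Among the transporters of lactate, Slc16a1 minus Slc16a3 was 0.04 ± 0.58 in KO and 0.59 ± 0.38 in WT hosts, a shift of -0.56 (exact permutation p = 0.0952, adjusted p = 0.476). Ldha minus Ldhb shifted by -0.34 (exact permutation p = 0.223, adjusted p = 0.639) and Hk1 minus Hk2 by -0.33 (exact permutation p = 0.255, adjusted p = 0.639), or by -0.17 with the other probe set of Hk1. The pairs among PFKFB enzymes shifted by -0.13 to -0.06 and Aldoa minus Aldoc by -0.01. The groups overlapped in all 20 pairs. Leaving out KO hosts 2 and 3 and WT hosts 2 and 5 gave shifts of 1.12 for Slc2a1 minus Slc2a3, of 0.69 for Pfkl minus Pfkm and of 0.81 for Pdk1 minus Pdk2, each without overlap (exact permutation p = 0.0286 each, the smallest that 4 tumours against 4 can give, and adjusted p = 0.19 each). WT hosts 2 and 5 had the highest 2 WT values in each of these pairs, and KO host 2 or 3 the lowest KO value, so that the lack of overlap and its p follow from which tumours were left out and are given as a description.

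**Figure D3:**
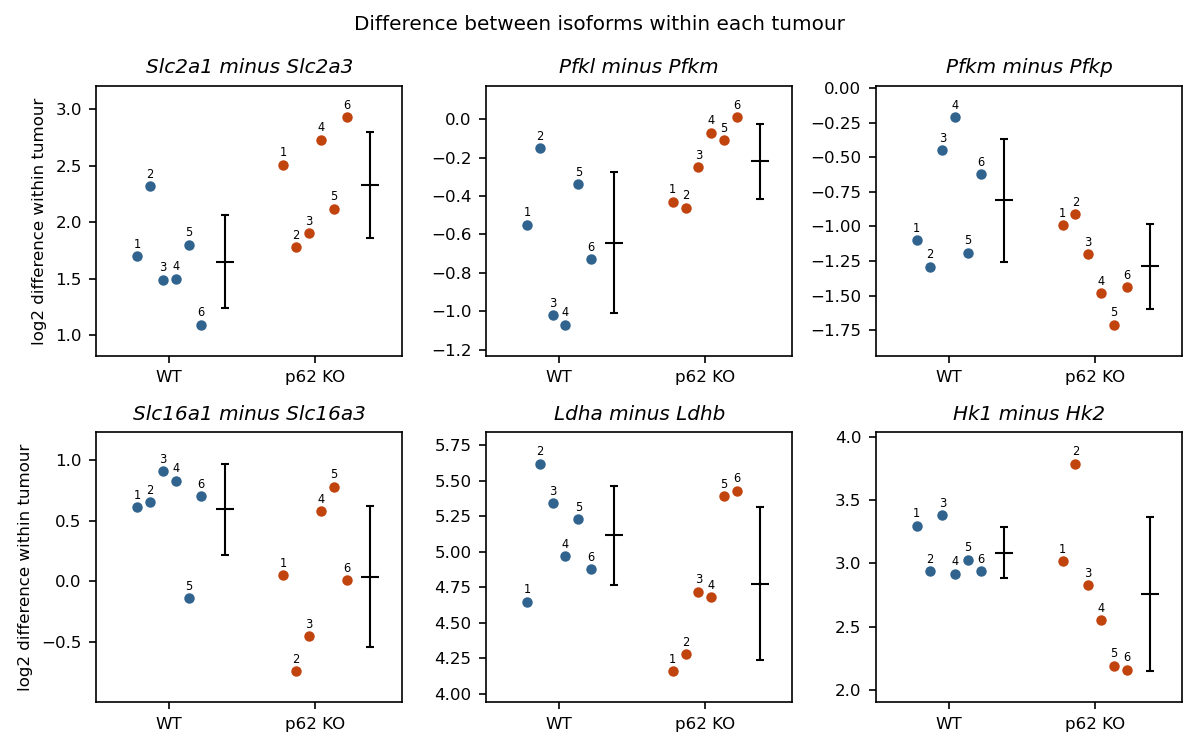
Log2 difference between isoforms within each tumour (points, numbered by mouse) with the group mean and SD (n = 6 per group) for 6 of the 20 pairs, in WT hosts (blue) and p62 KO hosts (orange). The zero of each axis depends on the probe sets and has no meaning by itself, and only the shift between groups is read, such as 0.68 for Slc2a1 minus Slc2a3.

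Tumour by tumour, many members were highest in the same tumour of each group. KO host 6 had the highest level of its group in 15 of 32 members and WT host 2 in 13 of 32, and in 11 members both held. These 11 were Slc2a1, Hk2, Pfkl, Pfkp, Aldoa, Tpi1, Pgk1, Pgam1, Pkm, Ldha and Pdk1, which together span glucose uptake to lactate and the PDK gate. Averaged over the 32 members, KO hosts 4, 5 and 6 stood 0.16, 0.22 and 0.37 above the mean over the 12 tumours and WT host 2 by 0.10, while the other WT tumours lay between -0.13 and -0.09. KO hosts 2 and 3, at -0.20 and -0.16, were the lowest 2 of all, and KO host 2 was the lowest of its group in 16 members. Aldoc, Ldhb, Slc16a3 and Hk3 were not highest in WT host 2, which stood at 5.22, 6.23, 6.86 and 6.42 in them, below or near the WT medians.

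**Figure D4:**
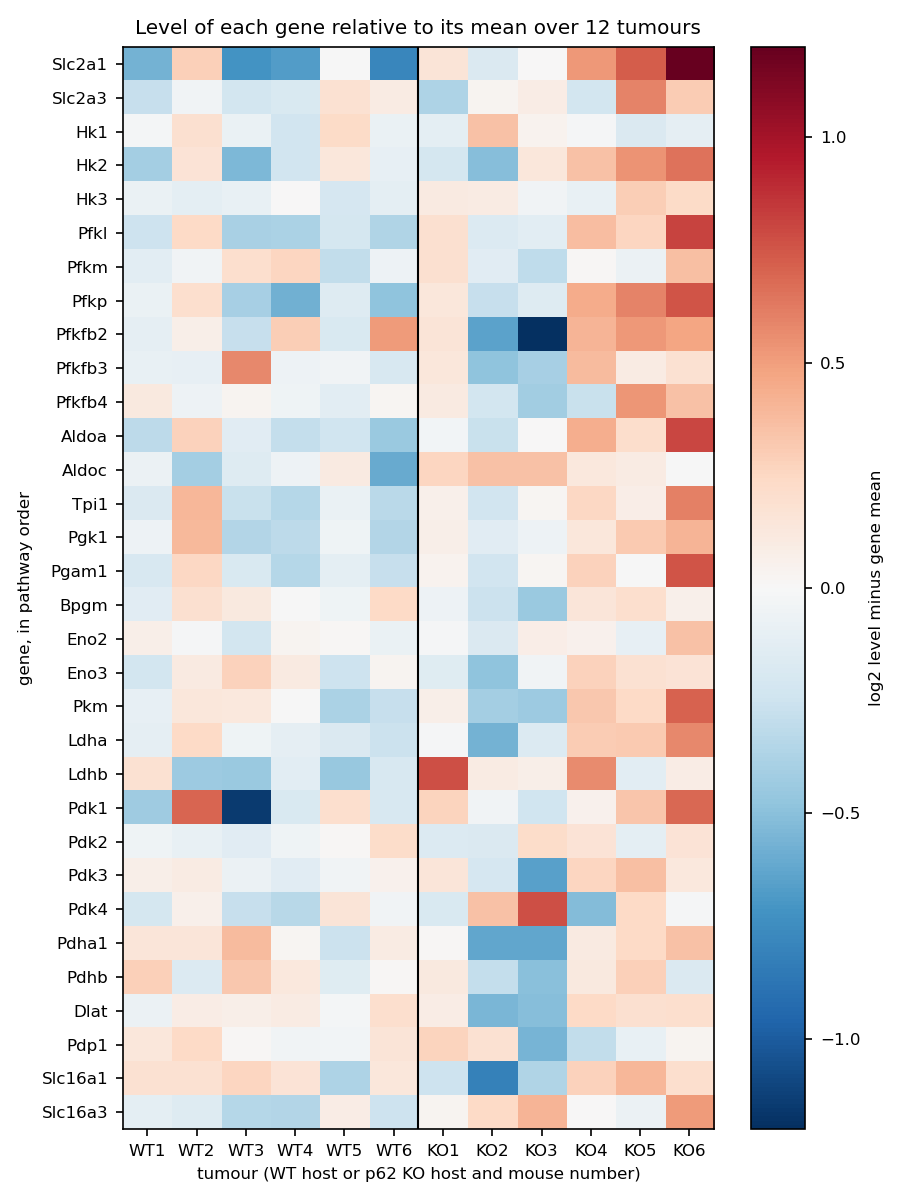
Log2 level of the 32 genes in pathway order (rows) in each tumour (columns, WT hosts left and p62 KO hosts right of the line), relative to each gene's mean over the 12 tumours. WT host 2 stands out among the WT tumours with values above the mean in most glycolytic genes, and KO hosts 2 and 3 show low values that KO hosts 4, 5 and 6 do not.

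Leaving out the narrow arrays raised some members' differences and lowered others. Without KO hosts 2 and 3, 29 of 32 members had a difference above 0, against 45.5% of all probe sets, and 16 had an unadjusted p under 0.05, all higher, against 3.49% of all probe sets higher. Without WT hosts 2 and 5 as well, leaving 4 tumours a group, 28 were above 0, against 47.9% of all probe sets, and 15 had an unadjusted p under 0.05, all higher, against 2.56% of all probe sets higher. In 12 members every KO tumour then lay above every WT tumour, against 1.39% of all probe sets. These were Slc2a1, Pfkl, Pfkp, Aldoa, Aldoc, Tpi1, Pgk1, Pgam1, Ldha, Pdk1, Pdk3 and Slc16a3. Among these 4 tumours a group, Slc2a1 differed by 1.34, Pfkp by 0.87, Pdk1 by 0.82 and Pfkl by 0.75, all wider than over 12 tumours. Aldoc, at 0.34, and Ldhb, at 0.47, were narrower than over 12 tumours, Slc16a3 was the same at 0.38, Pdk4 was 0.10, and Pdha1 and Slc16a1 lay near 0 at 0.01 and -0.03. No member passed the adjusted test in either subset, with a smallest adjusted p of 0.602 and 0.132. Without KO hosts 2 and 3 alone the groups did not overlap in 1 member, Pdk3, against 0.638% of all probe sets. Both subsets leave out the KO tumours with the lowest mean over the members, and the second leaves out the WT tumour with the highest, so that these counts do not stand beside those over 12 tumours as independent support.

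Other genes of the pathway had a smaller median difference than the members, but a like share above 0. Of 42 listed, 39 were measured, and 0 passed the adjusted test. There were 27 above 0 and 12 below, beside 22 and 10 of the 32 members and 57.2% of all probe sets above 0. Their median was 0.05, against 0.15 over the members and 0.02 over all probe sets. Slc2a13, a transporter of myo-inositol, was 6.80 to 7.83 in KO hosts and 6.56 to 7.09 in WT hosts and differed by 0.35 (SE 0.16, adjusted p = 0.994). Pgm1, phosphoglucomutase, which links glycogen to glycolysis, was 7.01 to 7.95 against 6.96 to 7.35 and differed by 0.34 (SE 0.16), or 0.56 without KO hosts 2 and 3. Bsg, the chaperone that brings lactate transporters to the membrane, differed by 0.15 (SE 0.10), the transporter Slc2a8 by 0.17 (SE 0.10), Hkdc1 by 0.14 (SE 0.10) and the sperm enzyme Gapdhs by 0.13 (SE 0.09). Mpc1, a subunit of the mitochondrial pyruvate carrier, differed by 0.07 (SE 0.11) and Txnip, an inhibitor of glucose uptake, by 0.04 (SE 0.22). These genes, named by size of p or by role, all lie above 0. Among the 12 below 0, chosen after their values were seen, were 4 further parts of the pyruvate dehydrogenase system. Pdhx, which holds the complex together, differed by -0.29 (SE 0.22), the phosphatase regulator Pdpr by -0.20, the shared subunit Dld by -0.14 and the phosphatase Pdp2 by -0.14. Without KO hosts 2 and 3, Pdhx differed by 0.02, Pdpr by 0.07 and Dld by 0.03, while Pdp2 stayed below 0 at -0.13. The transporter Slc16a7 differed by -0.18 and the phosphatase Minpp1 by -0.16, or by 0.22 and 0.07 without KO hosts 2 and 3.

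Markers of other cell types were set beside the isoforms those cells use, and the part of cell make-up in the members' differences was not tested. Their counts above 0 over 12 tumours are to be read against 57.2% of all probe sets. Neutrophil markers, beside Hk3 and Slc2a3, had 12 of 12 genes with a difference above 0 and a mean level of 5.73 to 6.58 in tumours of KO hosts against 5.63 to 6.10 in WT hosts, with S100a9 at 0.58 (SE 0.18), Trem1 at 0.55 (SE 0.20), Ly6g at 0.44 and S100a8 at 0.43. Their highest level was in KO host 2, and without KO hosts 2 and 3 the neutrophil genes above 0 were 9 with a median of 0.20 in place of 0.32. Macrophage markers, beside Hk3, had 11 of 12 above 0 and levels of 8.80 to 9.50 against 8.83 to 9.17, with KO host 6 highest, Itgam at 0.30 (SE 0.16), Arg1 at 0.82 (SE 0.48), Cd68 at 0.20 and Adgre1 at -0.13. Arg1, like the 11 members above, was highest of its groups in KO host 6 (9.36) and WT host 2 (8.76). The macrophage list as a whole was instead highest among WT tumours in WT host 3. WT host 2 was the lowest WT tumour in Adgre1 (9.10), Csf1r (8.62), Mrc1 (10.28), Itgam (8.32), C1qa (7.46) and C1qb (8.78), though not in all 12. Skeletal muscle markers, beside Pfkm and Eno3, were at 5.91 to 6.33 against 5.89 to 6.11 with 8 of 12 above 0, with Ckm at 0.03, Myh4 at 0.18 and Mb at 0.17. Neuronal markers, beside Aldoc and Eno2, were at 5.62 to 6.12 against 5.78 to 6.11 with 6 of 8 above 0, with Tubb3 at -0.22, Syp at 0.08, Stmn2 at 0.20 and Chga at 0.19. Erythroid markers, beside Bpgm, had 3 of 8 measured, at 5.68 to 5.98 against 5.82 to 5.89, with Alas2 at -0.22, Slc4a1 at 0.01 and Epb42 at 0.20. These counts moved without KO hosts 2 and 3, where 45.5% of all probe sets lay above 0. Macrophage markers then had 12 of 12 above 0 (median 0.28) and skeletal muscle markers 3 of 12 (median -0.06). Neuronal markers had 2 of 8 (median -0.08) and erythroid markers 0 of 3 (median -0.05).

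Adipocyte markers, beside Pdk4, had 8 of 9 above 0, against 57.2% of all probe sets, and levels of 6.25 to 6.63 against 6.01 to 6.37. Without KO hosts 2 and 3, 6 of the 9 were above 0, against 45.5% of all probe sets, with a median of 0.10. Fibroblast markers were at 9.06 to 9.78 against 9.31 to 9.68, endothelial markers at 6.95 to 7.59 against 6.92 to 7.52, and lymphocyte markers at 5.26 to 5.75 against 5.19 to 5.76. Prostate secretion genes, a sign of normal gland, were at 3.77 to 4.31 against 3.81 to 4.25. WT host 4 stood out in Sbp (6.05) and Spink1 (5.82), where the next highest tumours were at 3.66 and 4.20. Genes that respond to tissue handling had 10 of 11 above 0 and levels of 7.24 to 7.53 in KO hosts, highest in KO host 6, against a mean of 7.13 and a highest level of 7.32 in WT hosts, with Dusp1 at 0.56 (SE 0.16) and Nr4a1 at 0.45 (SE 0.15). Without KO hosts 2 and 3, 9 of these 11 genes were above 0, with a median of 0.18. The part of handling in the members' differences was not tested.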

How the data were processed

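Total RNA of 12 tumours was amplified with the Ovation Pico WTA kit, biotin-labelled and hybridised to 1 single-colour array each, per the labels. The authors deposited log2 intensities per probe set made with RMA (background correction, normalization and summary of probes), per the submitters' processing notes, which give no version, and the genome build is not given in the sources used here. Of 34760 rows, 6568 with the lowest identifiers were taken as controls and 28192 were tested, of which 21640 carry 1 symbol, 1321 several and 5231 none in the platform annotation. Where several probe sets named a gene, that of the highest mean was used. The comparison used lmFit and eBayes of limma 3.58.1 (R 4.3.3), with two-sided p-values adjusted over all tested probe sets at a threshold of 0.05, after a check on simulated data. Members, gene lists and left-out tumours were chosen with earlier results of these data known. Full ranges are given for the member of each step with the smallest unadjusted p and for 6 members in each direction, and differences for all. The rule also names 4 genes of each marker list, which are given only for lists set beside a result, and not all of them. Mouse numbers were tried as a block, although the labels do not say that they pair tumours. Alternatives were other scalings, filters, weights, covariates, probe sets and left-out tumours. Precision is limited by the number of arrays. Figures were drawn with matplotlib 3.10.9.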

Additional observations from a re-analysis of the deposited data

Results flagged for a closer look

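Within each group of 6 tumours, the gap between the most extreme tumour and its nearest neighbour was set against the whole range of the group. Of 64 groups examined (32 genes in 2 host groups), 4 had a tumour standing far out, where chance gives about 1 in 20. Pfkl was 7.42 in WT host 2, with the next WT tumour at 6.97. Tpi1 was 10.70 in the same tumour, with the next at 10.22. Pfkfb3 was 8.29 in WT host 3, with the next at 7.67. Slc16a1 was 6.95 in WT host 5, below the next lowest at 7.46.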

How the results depend on the processing

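The count of members passing the adjusted test was 0 under every alternative run, the members above 0 numbered 18 to 29, and the median difference over members was 0.05 to 0.23. Over all probe sets tested in each run, 43.9% to 58.7% were above 0 and the median difference was -0.02 to 0.04. The number of isoform pairs passing was 0 throughout, with 0 to 4 at an unadjusted p under 0.05. The 1 probe set passing over the whole array fell to 0 with dim probe sets filtered out, with control rows included, with the mouse number as a replicate block and without KO hosts 2 and 3, and was 0 to 1 with any 1 tumour left out. Members with an unadjusted p under 0.05, 8 in the report, numbered 5 with a common median per array, 16 with array weights and 10 with each array's interquartile range in the model. Over all probe sets, the share under 0.05 in either direction was 2.39% in the report. It was 2.3%, 6.52% and 6.85% in these 3 settings, so that the share over the whole array rose with the last 2 as well. Array weights put 29 members above 0, against 46.8% of all probe sets. With the block, 22 members were above 0, against 57.2% of all probe sets. There, 6 members had an unadjusted p under 0.05, against 1.86% of all probe sets in either direction. Deviations of tumours with the same number correlated at -0.55 to 0.37, and samples share only a number. Small differences turned sign, and the cause was not tested. A common median per array gave -0.01 for Pfkm, Pfkfb4 and Pdk2 and -0.02 for Pdk3. Quantile normalization gave -0.04 for Pfkfb4, -0.01 for Pdk2 and 0.05 for Eno3. Array weights gave 0.26 for Pfkfb2, 0.18 for Pfkfb3, 0.04 for Bpgm and Pdha1, 0.12 for Eno3, 0.09 for Dlat and 0.01 for Slc16a1. The interquartile range as a covariate gave 0.03 for Pfkfb2 and Eno3 and 0.04 for Pfkfb3. Hk1 was 0.07 as the mean of its probe sets and 0.15 on the probe set beside genes of its own chromosome, an alternative chosen after seeing the data. Without KO hosts 2 and 3, Pfkfb2 was 0.34, Pfkfb3 0.18, Bpgm 0.03, Eno3 0.11, Pdk4 -0.01, Pdha1 0.09, Pdhb 0.01, Dlat 0.12 and Slc16a1 0.07. Without WT hosts 2 and 5 as well, Pfkfb2 was 0.29, Pfkfb3 0.14, Bpgm 0.03, Eno3 0.07, Pdha1 0.01 and Dlat 0.10. With each tumour left out in turn, Hk1 was -0.08 to 0.04, Pfkm -0.05 to 0.08, Pfkfb2 -0.22 to 0.13, Pfkfb3 -0.11 to 0.08, Pfkfb4 -0.08 to 0.11, Eno3 -0.07 to 0.08, Pdk2 -0.01 to 0.08 and Pdk3 -0.06 to 0.14. The dim filter left 29 members, and levels near the lower quartiles, as of Pdk4 and Aldoc, cannot be set against background because detection calls were not used here.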
